A study of Sus scrofa with 4 samples.

Results

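AQP3, AQP9 and AQP11 are 3 genes of the aquaporin family, and they were followed here in pig (Sus scrofa) blastocysts on 4 two-colour EMPV1 oligonucleotide arrays. They were chosen by gene symbol: every EMPV1 probe whose platform symbol, joined by spot number, was one of the 3. The 3 genes are among 10024 with a probe of that symbol, and have 4 of the 43794 probes, namely 2 for AQP3, 1 for AQP9 and 1 for AQP11. High NEFA pools held 10 blastocysts each, and their oocytes had met raised non-esterified fatty acids (NEFA), which are the free fatty acids that fat stores release into blood. Control pools held 10 blastocysts each from oocytes kept in the control condition, which the labels do not describe further. Each array set 1 high NEFA pool against 1 control pool, so 4 pools of each kind are counted here, with collection at day 7 and day 8. The design text gives 4 pools without saying whether this is per condition. By the labels, replicates 1 and 2 carried the high NEFA pool in the dye Cy3, whereas replicates 3 and 4 carried it in Cy5. The labels give no fatty acid dose, breed, age or day of each pool, and they do not say whether the co-culture with GCs in the title applied to both kinds of pool. They call the arrays biological replicates without naming separate sows, so the spread behind the p-values may be technical. It is the spread left between arrays once a difference between the dyes is fitted, drawn toward the spread over all tested probes. Total RNA is the labelled molecule, yet the extraction protocol goes on to a methylation-sensitive digest of genomic DNA, and the labelling protocol names DNA. Which of the 2 was hybridised was not tested, and if it was DNA the values below are not transcript levels.

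Aquaporins are membrane proteins that form pores for water, and some of them also pass glycerol. In the mammalian blastocyst, the outer epithelium, the trophectoderm, pumps sodium inward, water follows through aquaporins, and tight junctions keep the fluid in the growing cavity, the blastocoel. AQP3 and AQP9 belong to the aquaglyceroporins, which pass glycerol as well as water. AQP9 also passes other small uncharged solutes and is known as the glycerol channel of the liver. AQP11 belongs to a more distant group of the family and lies mostly in intracellular membranes. In the RefSeq gene table of assembly Sscrofa11.1, used here for names and gene order only, AQP3 lies between NOL6 and AQP7, AQP9 between LIPC and ALDH1A2, and AQP11 between PAK1 and CLNS1A.

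All 4 probes gave signal above background in every pool. The limit for a channel was 2 SD above the mean of its 153 negative controls, set against the median pixel intensity of the spot. Each of the 4 probes passed it in all 4 high NEFA and all 4 control channels, and did so at 3 SD too. Across all probes, 49.98% to 58.6% passed in high NEFA channels and 49.0% to 60.3% in control channels, with the higher share in Cy3 on every array. None of the member spots was marked for exclusion on any array. The arrays measure whole pools, so a difference in the share of a cell type and a difference in RNA per cell cannot be told apart. Intensities of different probes are not comparable with each other, so no order of abundance among the 3 genes is given.

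With median pixel intensity, no difference between high NEFA and control blastocysts beyond the spread between arrays was found for any of the 3 genes. In the limma fit, 0 of 4 member probes had a Benjamini-Hochberg adjusted p under 0.05, where 0% of the 24524 tested probes did. At an unadjusted p under 0.05 there were also 0 of 4 member probes, against 1573 of all tested probes (6.41%). Each of the 4 probes was higher in the high NEFA pool on 2 arrays and lower on 2, so none had the same direction on all 4 arrays, which 7.82% of tested probes had. The ratios are on the log2 scale, high NEFA over control, with values above 0 for a higher signal in high NEFA pools. They were 0.22 for AQP9, 0.19 and -0.02 for the 2 AQP3 probes and 0.16 for AQP11. With mean pixel intensity they were 0.21 ± 0.04 (SE) for AQP9, 0.15 ± 0.08 and 0.12 ± 0.05 for AQP3 and 0.06 ± 0.08 for AQP11. Their adjusted p was then 0.511, 0.666, 0.569 and 0.876 by limma, so none passed. The SE for AQP9 was 0.13 with median intensity, so its standing against the spread depended on the pixel summary.

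AQP3, the water and glycerol channel of basolateral membranes in many epithelia, gave a bright spot with probe EMPV1_09899. Its median intensity on replicates 1 to 4 was 43893, 48884, 28877 and 25045 in the high NEFA pools, against 25979, 24398, 37612 and 42933 in the control pools. The ranges overlapped, and on each array the brighter pool was the one labelled with Cy3. Over all probes, too, Cy3 was brighter on every array, with median intensities of 332 to 397 against 202 to 247 in Cy5. These intensities were 101 to 158 times the limit in high NEFA channels and 107 to 123 times the limit in control channels. Local background was 43 to 96 in the high NEFA channels and 47 to 89 in the control channels. The spot stayed under the highest spot value of the scans, 65535, in all 8 channels.

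After loess normalization, which removes the dye bias that depends on intensity, the EMPV1_09899 ratios on replicates 1 to 4 were 0.67, 0.93, -0.19 and -0.66. Both arrays with the high NEFA pool in Cy3 were positive and both with it in Cy5 were negative. The fitted ratio was 0.19 ± 0.14 (SE, n = 4 arrays), with an adjusted p of 0.817 by limma. Its 95% interval ran from -0.12 to 0.49, that is, from 0.92-fold to 1.41-fold. The mean ratio was 0.80 over the 2 arrays with high NEFA in Cy3 and -0.42 over the 2 with high NEFA in Cy5.

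The other AQP3 probe, EMPV1_37697, gave a dim spot. Its intensity was 640, 387, 391 and 346 in the high NEFA pools, against 317, 315, 638 and 528 in the control pools. The ranges overlapped, and the Cy3 pool was again the brighter one on each array, as in the median over all probes. The intensity was 1.25 to 1.83 times the limit in high NEFA channels and 1.43 to 1.81 times in control channels, so the spot stood little above background in either kind of pool. Its ratios on replicates 1 to 4 were 0.39, -0.41, -0.10 and 0.03, which differ in sign within each dye orientation. The fitted ratio was -0.02 ± 0.15 (SE, n = 4 arrays; adjusted p 0.983 by limma), with a 95% interval of 0.78-fold to 1.25-fold.

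The 2 AQP3 probes differed from array to array. The ratio of EMPV1_09899 minus that of EMPV1_37697 was 0.28, 1.33, -0.09 and -0.69 on replicates 1 to 4, with a mean of 0.21 ± 0.85 (SD, n = 4). The signs of the 2 probes were opposite on replicates 2 and 4. Taken as the mean of both probes, the AQP3 ratio was 0.08, in place of 0.19 for the brighter probe alone. The transcript regions that the probes match were not analysed here, so which of them better represents AQP3 was not tested.

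AQP9 had the highest fitted ratio of the 4 member probes. Probe EMPV1_05170 had intensities of 963, 416, 541 and 607 in the high NEFA pools, against 643, 321, 609 and 592 in the control pools. The highest value of either kind was on replicate 1 and the lowest on replicate 2, in both pools of the array. The 2 kinds of pool overlapped in range. The intensities were 1.34 to 2.76 times the limit in high NEFA channels and 1.57 to 3.05 times the limit in control channels.

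The normalized AQP9 ratios were -0.01, -0.33, 0.50 and 0.71 on replicates 1 to 4. Both negative ratios came from arrays with the high NEFA pool in Cy3, and both positive ones from arrays with it in Cy5. The fitted ratio was 0.22 ± 0.13 (SE, n = 4 arrays; adjusted p 0.777 by limma), and its 95% interval was -0.07 to 0.51, or 0.95-fold to 1.42-fold. Within the dye orientations the mean ratio was -0.17 with high NEFA in Cy3 and 0.61 with high NEFA in Cy5. Among all tested probes, 19.0% had a fitted ratio at least as far from 0 as that of AQP9, 25.4% as that of the bright AQP3 probe and 31.5% as that of AQP11.

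AQP11, the intracellular member, was read by probe EMPV1_38198. Its intensity on replicates 1 to 4 was 1.52, 1.35, 2.11 and 1.50 times the limit of the channel in the high NEFA pools, against 1.90, 1.68, 1.31 and 1.18 times in the control pools. The ranges overlapped, and the pool with the higher multiple was on every array the one labelled with Cy5. The normalized ratios were -0.33, -0.42, 0.87 and 0.54 on replicates 1 to 4, again negative with high NEFA in Cy3 and positive with high NEFA in Cy5. The fitted ratio was 0.16 ± 0.13 (SE, n = 4 arrays; adjusted p 0.827 by limma), with a 95% interval of -0.12 to 0.45, or 0.92-fold to 1.37-fold. With mean pixel intensity it was 0.06. The mean ratio was -0.37 within the first dye orientation and 0.70 within the second.

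**Figure D1:**
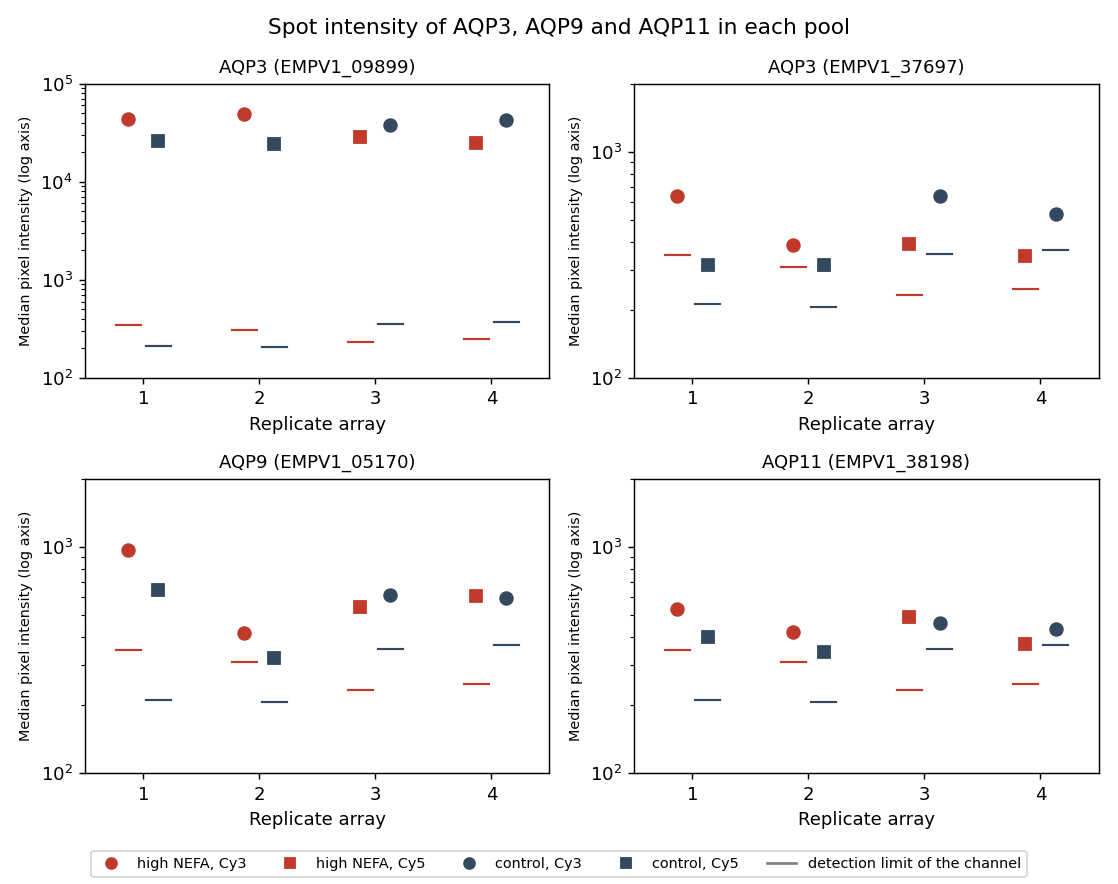
Median pixel intensity (log axis, with a wider range for the first AQP3 probe) of the 4 member probes on replicate arrays 1 to 4. Red points are high NEFA pools and dark points control pools, circles are Cy3 and squares Cy5, and each bar is the detection limit of that channel. Every point lies above its own bar, from 1.18 times the limit for AQP11 on replicate 4 (control pool) to 158 times for AQP3 EMPV1_09899 on replicate 2 (high NEFA pool).

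For AQP3 EMPV1_09899, AQP9 and AQP11 the arrays divided by dye and not by exposure. The fit holds a dye term beside the exposure term, which is the mean log2 of Cy5 over Cy3 over the 4 arrays. It was -0.61 ± 0.14 (SE) for AQP3 EMPV1_09899, 0.54 ± 0.13 for AQP11 and 0.39 ± 0.13 for AQP9. The Cy3 channel was the higher one on 4 of 4 arrays for AQP3 EMPV1_09899, and the Cy5 channel was the higher one on 4 of 4 arrays for AQP9 and for AQP11. The adjusted p of the dye term by limma was 0.0124 for AQP3 EMPV1_09899, 0.0160 for AQP11 and 0.0560 for AQP9. The dim AQP3 probe had a dye term of -0.01 ± 0.15 (adjusted p 0.956 by limma). So 2 of the 4 member probes passed for the dye, against 22.8% of all tested probes. In each of the 3 probes the dye term was larger than the exposure term. The SEs are taken after the dye term is fitted. The 4 ratios themselves had an SD of 0.74 for AQP3 EMPV1_09899, 0.64 for AQP11 and 0.47 for AQP9.

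The dye also divided the arrays over many other probes. Opposite signs in the 2 dye orientations, with the same sign within each, were found for 3 of the 4 member probes and for 41.6% of tested probes. Over all tested probes, log2 of Cy5 over Cy3 correlated at 0.46 between replicates 1 and 2 and at 0.62 between replicates 3 and 4, as a description over probes of the same arrays. Between arrays of opposite orientation it correlated at 0.50 to 0.51, which as high NEFA over control is -0.51 to -0.50. The values for opposite orientation thus lay between those for the 2 pairs of the same orientation. The ratios above rest on the dyes as the labels state them, and whether these are right was not tested. Had all 4 arrays carried the high NEFA pool in the same dye, the dye term would hold exposure and dye bias together, which could not be told apart. Its direction would also depend on which dye that was. With Cy3 it would read as higher for AQP3 EMPV1_09899 and lower for AQP9 and AQP11, and with Cy5 as the reverse. A dye term at least as far from 0 was found for 10.9% of tested probes for AQP3 EMPV1_09899, 14.9% for AQP11 and 27.8% for AQP9, an order unlike that of the exposure ratios.

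**Figure D2:**
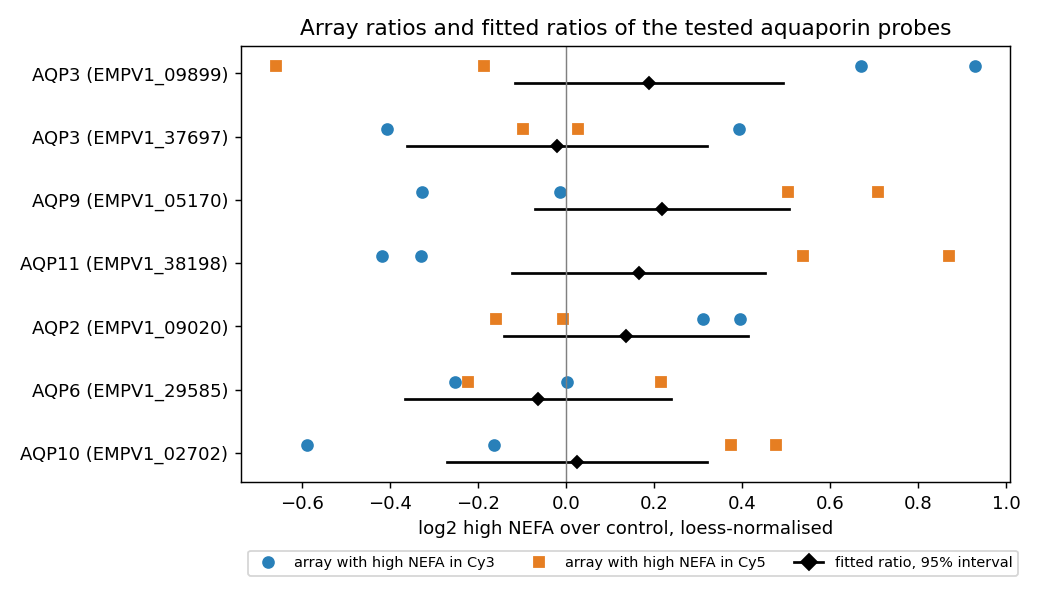
Loess-normalized log2 ratios of high NEFA over control for the 7 tested aquaporin probes, 1 point per array. Circles are arrays with high NEFA in Cy3, squares arrays with high NEFA in Cy5, and diamonds with bars the fitted ratio with its 95% interval. For AQP9 and AQP11 the squares lie to the right of the circles, for AQP3 EMPV1_09899 to the left, and every interval includes 0.

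**Figure D3:**
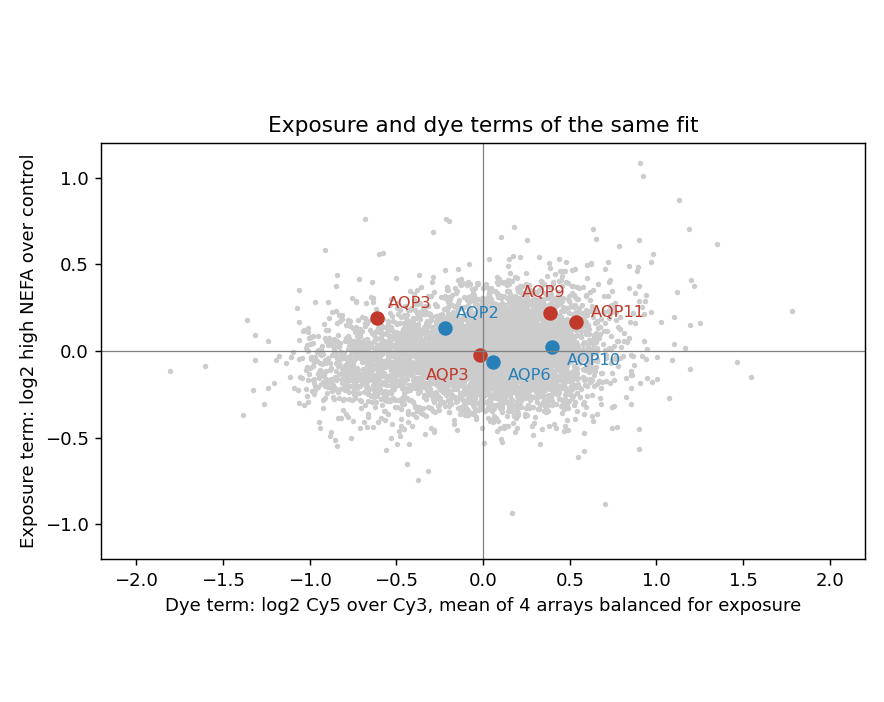
Dye term (horizontal, log2 Cy5 over Cy3) against exposure term (vertical, log2 high NEFA over control) of the same fit for the brightest tested probe of 6226 genes in grey, with the member probes in red and the other tested aquaporins in blue. Along the dye axis AQP3 EMPV1_09899 lies at -0.61 and AQP11 at 0.54, while no member lies beyond 0.22 along the exposure axis.

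Levels also differed from array to array. With the arrays brought to 1 scale by Aquantile, AQP9 had log2 levels of 9.52, 8.32, 9.25 and 9.29 in the high NEFA pools of replicates 1 to 4, against 9.53, 8.65, 8.75 and 8.58 in the control pools. Its level averaged over both pools spanned 2.05-fold between arrays, from 8.49 on replicate 2 to 9.53 on replicate 1. A range at least as wide was found for 4.68% of tested probes. The AQP9 level averaged 9.10 ± 0.53 in the high NEFA pools and 8.88 ± 0.44 in the control pools (SD, n = 4 each). These SDs include any shift between arrays that both pools share, which the ratio within each array leaves out.

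The other members ranged less between arrays. The level averaged over both pools spanned 1.24-fold for AQP3 EMPV1_09899, 1.30-fold for AQP3 EMPV1_37697 and 1.31-fold for AQP11, and 66.8%, 54.0% and 51.0% of tested probes had ranges as wide. Mean log2 levels were 15.12 ± 0.52 in high NEFA and 14.93 ± 0.23 in control pools for AQP3 EMPV1_09899, and 8.59 ± 0.30 in high NEFA and 8.61 ± 0.19 in control pools for EMPV1_37697 (SD, n = 4 each). For AQP11 they were 8.64 ± 0.33 in high NEFA and 8.47 ± 0.40 in control pools.

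**Figure D4:**
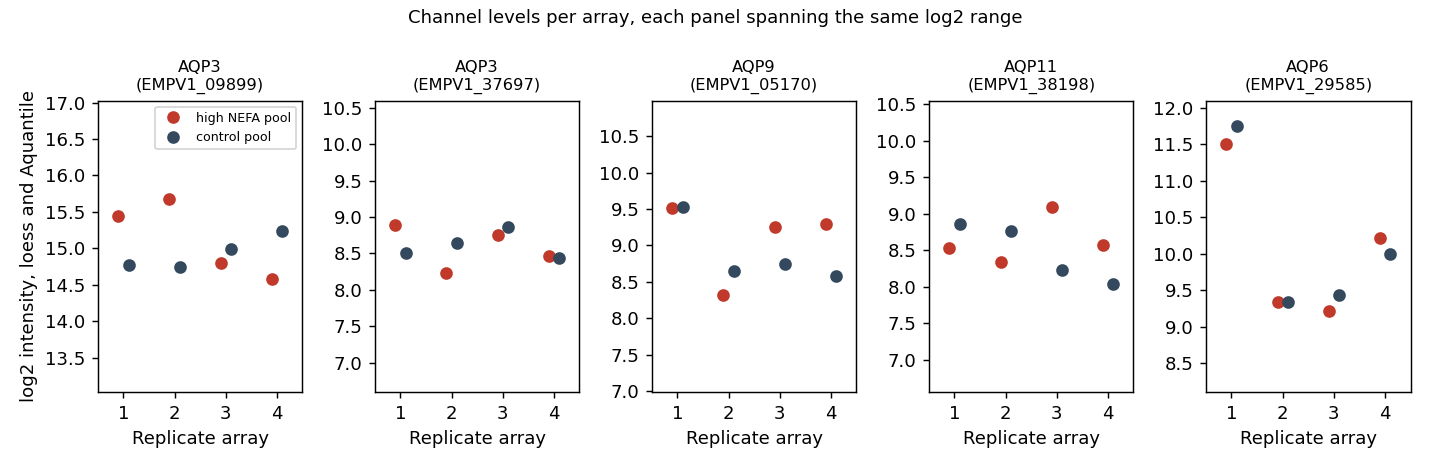
Log2 channel levels after loess and Aquantile normalization on replicate arrays 1 to 4, for the member probes and AQP6, with high NEFA pools in red and control pools dark. Panels span the same log2 range about their own centre. Both pools move together between arrays for AQP6, whose mean level spans 4.92-fold, and in part for AQP9, at 2.05-fold.

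Of the other aquaporins, 7 had a probe on the array, and 3 of these were bright enough to be tested, that is, above background in at least 4 of the 8 channels. AQP6, known as an anion-conducting aquaporin of kidney intracellular vesicles, was above background in all 8 channels. Its intensity was 3431, 773, 522 and 1155 in the high NEFA pools, against 3023, 490, 936 and 1473 in the control pools. Its mean level spanned 4.92-fold between arrays, a range that 0.432% of tested probes reached, and replicate 1 was highest in both kinds of pool. Its fitted ratio was -0.06 ± 0.14 (SE; adjusted p 0.947 by limma). AQP2, the vasopressin-regulated channel of the kidney collecting duct, had a ratio of 0.14 ± 0.12 (adjusted p 0.845 by limma). AQP10, an aquaglyceroporin of the intestine, had 0.02 ± 0.13 (adjusted p 0.978 by limma). AQP2 passed the limit in all 4 high NEFA but 3 control channels, and AQP10 in 2 channels of each kind.

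The remaining 4 family members were not well above background in most channels. AQP8 passed the limit in 1 high NEFA and 2 control channels, all 3 of them Cy3 channels. AQP4 passed it in 1 channel of each kind. AQP7, the adipocyte glycerol channel and neighbour of AQP3, passed it in 1 high NEFA and 0 control channels. MIP, the lens aquaporin, passed it in 0 of 8 channels. No ratios are given for these. AQP1 and AQP5 had no probe with that symbol and were not analysed here.

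Among the 6 aquaporin genes with a tested probe, 5 had a fitted ratio above 0 and 1 below, with a median of 0.15. With mean in place of median pixel intensity, 3 of the 6 lay above 0 and the median was 0.022. Over all 6226 genes tested, 47.2% had a ratio above 0 and the median was -0.01. None of the 6 passed the adjusted threshold, and 0 of 6 had an unadjusted p under 0.05, against 6.42% of genes tested. The aquaporin median was -0.13 on replicate 1, -0.08 on replicate 2, 0.23 on replicate 3 and 0.29 on replicate 4, so that it too changed sign with the dye orientation. The median over all genes tested did so as well, at -0.05, -0.04, 0.03 and 0.04 on replicates 1 to 4.

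Partners of the aquaporins in blastocoel formation gave no gene past the adjusted threshold either. Of 31 genes listed for sodium and chloride transport, 11 had a probe and 7 were tested. No catalytic alpha subunit of the sodium pump was among those tested. Of the 7, 6 had ratios above 0, their median being 0.10 and their smallest adjusted p 0.824 by limma. CFTR, a chloride channel, had 0.16 ± 0.12 (SE), with ratios of 0.08, 0.16, 0.13 and 0.27, above 0 on all 4 arrays. FXYD4, a regulator of the sodium pump, had 0.17 ± 0.18. Of 15 tight junction genes, 10 had ratios above 0, with a median of 0.09 (-0.0035 with mean pixel intensity). CXADR, an adhesion protein of the junction, had -0.37 ± 0.14 (unadjusted p 0.0229) and MARVELD3, a tight junction protein, had 0.53 ± 0.26. Both had an adjusted p of 0.764 by limma. CXADR passed the background limit in 2 high NEFA and 4 control channels, and MARVELD3 in 3 high NEFA and 1 control channel. The MARVELD3 ratio rested on single arrays, being 1.04 without replicate 3 and 0.02 without replicate 4.

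Glycerol, which AQP3 and AQP9 carry, is released from triglyceride and built into it again. Of 10 tested genes of glycerol handling, 7 had ratios above 0 and 3 below, with a median of 0.05. DGAT1, which makes triglyceride, had 0.29 ± 0.12 and the lipase PNPLA2 -0.22 ± 0.13 (SE; adjusted p 0.764 and 0.778 by limma). Of 7 osmotic stress genes, 5 had ratios below 0, with a median of -0.05 (0.021 with mean pixel intensity). The taurine transporter SLC6A6 had -0.14 ± 0.12 and the kinase OXSR1 -0.16 ± 0.17 (adjusted p 0.842 and 0.855 by limma). Of 12 genes tied to aquaporin traffic or transcription, 6 had ratios above 0 and 6 below, with a median of -0.03. RAB11A, a GTPase of recycling endosomes, had 0.32 ± 0.14, above 0 on all 4 arrays, and SNAP23, a membrane fusion protein, had -0.25 ± 0.13 (adjusted p 0.764 and 0.765 by limma). The same direction on all 4 arrays was found for 2 of these 12 genes, RAB11A above 0 and the other below. It was found for 1 of the 7 ion transport genes, CFTR, and for 471 of all 6226 genes tested. An unadjusted p under 0.05 was reached by 0 of 7 ion transport, 1 of 15 tight junction, 1 of 10 glycerol, 0 of 7 osmotic stress and 1 of 12 traffic genes, set against the 6.42% of all genes.

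**Figure D5:**
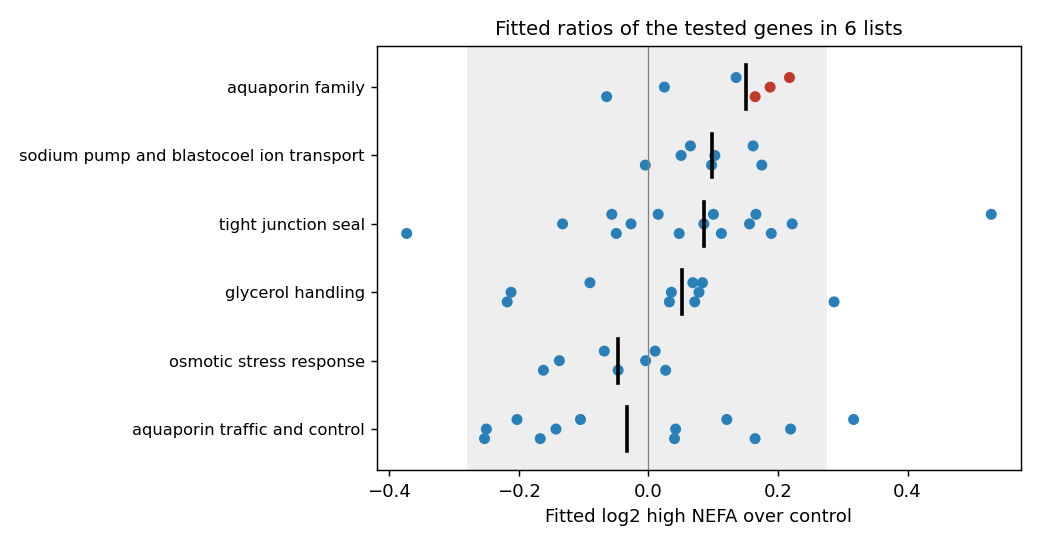
Fitted log2 ratios of high NEFA over control for the tested genes of 6 lists, 1 point per gene (brightest tested probe), with the members in red and list medians as black bars. The grey band holds the middle 90% of all genes tested, -0.28 to 0.27, and all 6 aquaporins lie inside it, with their median at 0.15.

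The labelled tissue was set against cell type markers. Of 12 trophectoderm markers on the array, 10 were tested and 9 were above background in all 8 channels, with TEAD4, TFAP2C and GATA2 the brightest. Their ratios were 0.12 ± 0.13, 0.37 ± 0.15 and 0.04 ± 0.14 (SE), and DLX3, above background in 4 of 8 channels, had 0.57 ± 0.13. On replicates 1 to 4 the ratios were 1.11, 0.35, 0.05 and -0.03 for TFAP2C and 1.31, 0.98, -0.10 and 0.07 for DLX3. For both genes the larger values came from the arrays with high NEFA in Cy3. With mean pixel intensity TFAP2C had 0.18 and DLX3 0.09, and DLX3 ranged up to 1.69 in the authors' matrix. For granulosa cells, 7 of 13 markers on the array were tested and 3 were above background in all 8 channels, namely VIM, AMH and FST (0.11 ± 0.30, 0.07 ± 0.14 and 0.42 ± 0.13), with COL1A2 at 0.26 ± 0.13. These 4 had ratios above 0, and the other 3 tested had ratios below 0, namely AMHR2 (-0.19), LHCGR (-0.20) and NR5A2 (-0.21). VIM is expressed by many cell types, and COL1A2, a collagen gene, is not particular to granulosa cells. For oocytes, 10 of 14 were tested and 5 were above background in all 8 channels, with SYCP3, MOS and ZP2 the brightest (0.01 ± 0.15, -0.20 ± 0.24 and 0.09 ± 0.13), GDF9 at -0.33 ± 0.13 and ZAR1 at 0.30 ± 0.13 (-0.032 and 0.051 with mean pixel intensity). List medians were 0.08, 0.07 and -0.09 in this order (0.073, -0.0014 and -0.028 with mean pixel intensity), and no marker passed the adjusted threshold. An unadjusted p under 0.05 was reached by 4 of 10 trophectoderm markers, all 4 with ratios above 0, by 1 of 7 granulosa and by 1 of 10 oocyte markers, beside 6.42% of all genes. SERPINE2 among the granulosa markers and BMP15 and NOBOX among the oocyte markers passed the background limit in 0 of 8 channels. The summed level of the 12 trophectoderm markers on the array was 57929 to 82658 in high NEFA and 56271 to 73787 in control pools. That of the 13 granulosa markers was 5336 to 6761 in high NEFA and 4891 to 7020 in control pools, and that of the 14 oocyte markers 7156 to 9129 in high NEFA and 6957 to 10725 in control pools. Each sum is weighted toward its brightest spots and includes genes below the background limit, so it is compared only between pools for the same list. The ranges overlapped for each list, and the part of these cell types in the aquaporin ratios was not tested.

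Other genes shared the array patterns of the members. Likeness was measured as the root mean square difference of the 4 array ratios over 6207 genes with a value on every array, aquaporins left out. Nearest to AQP3 EMPV1_09899 were TP53RK at 0.051, RBP2 at 0.11 and TMEM167A at 0.11. Nearest to AQP9 were MAB21L1 at 0.046, MTRR at 0.059 and WDR43 at 0.075. Nearest to AQP11 were MLF2 at 0.039 and PHOSPHO2 and VBP1 at 0.050. These genes were picked as the closest of 6207 over only 4 values, so their closeness does not mark them as partners of the members. Such nearness also includes the dye term, since it rests on the same 4 arrays. AQP9 and AQP11 themselves differed by 0.26, and AQP3 EMPV1_09899 differed from AQP9 by 1.05 and from AQP11 by 1.16.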

How the data were processed

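The authors deposited scanner files that hold, per the file headers, the raw intensity of every spot and of its surroundings in the Cy3 and Cy5 channels, as medians and means over pixels, with no subtraction or normalization. The deposited series matrix holds log2 ratios per array, made with limma per the submitters' processing notes, with settings not stated. Its columns correlated at 0.975 to 0.994 with log2 of Cy5 over Cy3 after plain subtraction and loess, with slopes of 0.948 to 1.03, which sets their direction and, within these slopes, their scale. Their medians were 0.0022, 0.0083, 0.0088 and 0.016, and their centring is not stated. They served as an alternative, turned by dye. Here, median intensities were corrected by normexp (offset 50) and loess was run without weight on control spots (limma 3.58.1, statmod 1.5.0, R 4.3.3). The 17 to 60 marked spots per array were left out. Probes above background in at least 4 of 8 channels (24524) entered limma with an exposure term signed by dye and a dye intercept, leaving 2 residual degrees of freedom plus 7.87 from moderation. Tests were two-sided, and p-values were adjusted by Benjamini-Hochberg over all tested probes, with a threshold of 0.05. The number of arrays limits the precision: the median 95% interval reached 1.23-fold to either side.

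Symbols came from the platform table (13146 probes with 1 symbol, 0 with several, 30648 with none), and 218 older ones were updated through RefSeq. A gene of several probes was represented by its brightest tested probe, while all member probes are given. Members and gene lists were chosen with earlier results of these data known. Named are all aquaporin probes, the 2 genes of smallest p in each other list, the 3 brightest genes of each marker list and the 3 genes nearest to each member. The alternatives covered background correction, pixel summary, normalization, dye term, filter, variance prior, the authors' matrix, probe choice, detection limit and leaving out each array. Protein and probe sequences were not analysed here, and the image software is not stated.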

Additional observations from a re-analysis of the deposited data

Results flagged for a closer look

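Among 33 sets of 4 values (ratios, high NEFA levels and control levels of the 11 aquaporin probes), 3 held a value that stood far from the other 3, where chance gives about 1 in 20. All 3 belong to dim probes and none to AQP3, AQP9 or AQP11. The log2 level of AQP4 in the high NEFA pool of replicate 1 was 7.63, above 7.03 to 7.11 in the other high NEFA pools. That of AQP7 in the same pool was 8.10, above 7.46 to 7.52. That of MIP in the control pool of replicate 3 was 7.03, below 7.67 to 7.71 in the other control pools.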

How the results depend on the processing

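AQP3 EMPV1_09899, AQP9 and AQP11 kept a positive ratio and stayed short of the adjusted threshold under all 16 alternatives run for each. Aquantile scaling, the filter, the detection limit, the variance prior and, with balanced dyes, the dye term cannot change these ratios. Under those alternatives the sign was therefore fixed in advance. With all 4 arrays, the lowest and highest ratios were 0.14 and 0.22 for AQP3 EMPV1_09899, 0.20 and 0.23 for AQP9 and 0.06 (mean pixel intensity) and 0.18 for AQP11. With 1 array left out they were 0.07 and 0.31, 0.14 and 0.30, and 0.08 and 0.25, in the same order. AQP3 EMPV1_37697, at -0.02, had 0.12 with mean pixel intensity and between -0.22 and 0.18 with 1 array left out. Over all probes, 0 passed the adjusted threshold, but 7 did with plain subtraction, 4 with an offset of 16, 5 without the filter, 3 with the authors' matrix and 22 to 79 with 1 array left out. The members were not among them. Mean pixel intensity turned the sign of AQP2 (-0.051), AQP10 (-0.018), CXADR (0.042), DGAT1 (-0.032), SLC6A6 (0.050), SNAP23 (0.016), COL1A2 (-0.0014), SYCP3 (-0.13) and ZP2 (-0.024), and median centring that of SYCP3 (-0.011). Mean pixel intensity also brought 22 of 26 other named genes nearer to 0, 19 of them by over 1.5 times. The oocyte marker median was -0.196 over genes above background in all 8 channels and 0.064 without replicate 1, and the trophectoderm median 0.206 without replicate 2. With 1 array left out, signs varied for AQP6 (-0.17 to 0.045), AQP10 (-0.081 to 0.13), FXYD4 (-0.057 to 0.41), OXSR1 (-0.41 to 0.084), GATA2 (-0.071 to 0.16), AMH (-0.063 to 0.20), VIM (-0.41 to 0.63), MOS (-0.52 to 0.13) and SYCP3 (-0.18 to 0.20). The causes were not tested. Ratios of AQP3 EMPV1_37697, AQP9 and AQP11 rest on spots within 3.05 times the detection limit, which limits what these arrays can show.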
